A study of Mus musculus with 16 samples.

Results

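Sonic hedgehog signalling was represented by 7 genes, namely the ligand SHH, the receptor PTCH1, the transducer SMO, the transcription factors GLI1, GLI2 and GLI3, and the ligand-binding protein HHIP. They were taken by name from the target names of the array, and all of their probes were followed whatever their values. The 7 genes were 7 of 30854 target names, had 13 of 45281 probes, and 5 of them (SHH, PTCH1, SMO, GLI2 and GLI3) were among the 14829 genes that were bright enough to be tested. RNA came from 16 mouse cultures at day 7, each hybridized to its own Illumina MouseWG-6 v2.0 BeadChip array. In the ES/PA6 co-cultures, embryonic stem (ES) cells that carry enhanced green fluorescent protein under the tau promoter, per the study's methods, grew on a monolayer of PA6 cells, a stromal line derived from mouse bone marrow. The PA6 mono-cultures held the stromal line alone. All cultures were kept in serum-free medium, either without added growth factors (-GFs), with FGF2 at 20 ng/ml, or with BMP4 at 10 ng/ml. These doses and the exposure of 3 days are those of the labels. The study's methods give a smaller dose for BMP4 and state that both factors were added at the start and then withdrawn, so the RNA was taken after withdrawal. The co-cultures gave 2 untreated, 3 FGF2 and 2 BMP4 arrays, and PA6 gave 3 arrays in each medium. The labels speak of biological replicates, and both cell types are single lines, so the spread is that between cultures of the same lines.

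SHH is secreted after lipid modification, and it binds PTCH1, a membrane protein that otherwise keeps SMO inactive. Active SMO signals through the primary cilium to the GLI proteins, of which GLI2 acts mainly as an activator and GLI3 mainly as a repressor. GLI1, PTCH1 and HHIP are themselves switched on by the pathway and are widely used as its readouts, and PTCH1 and HHIP then restrain the ligand. In the embryo, SHH from the notochord and floor plate patterns the ventral neural tube, while BMP proteins act from its dorsal side.

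On the arrays, 16904 to 21261 probes were detected, which is 37.3% to 47.0% of all, with a detection p-value under 0.05 against the negative control beads. Arrays of 1 group correlated at 0.973 to 0.986 across genes. The labelled cell types were checked against markers. Of 15 neural markers 12 were tested, and their summed level (normalized linear intensity) was 32043 to 81553 in co-cultures and 562 to 911 in PA6, where NES, DCX, STMN2, MTAP2, NEUROG2, SOX11 and HES5 were undetected in all 3 media. Of 10 stromal markers all were tested, and their sum was 60771 to 82736 in co-cultures and 185709 to 237801 in PA6. The 10 pluripotency markers summed to 45065 to 142687 in co-cultures and to 3507 to 10096 in PA6. In these bulk samples fewer cells of a type and less RNA per cell cannot be told apart.

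The promoters of SMO and GLI3 are shown because these were the members with probes that were called lower with FGF2 in co-cultures when each probe was tested. The set of RefSeq (GRCm38.p6) promoter windows that was used held those of 5 members, GLI2, GLI3, HHIP, PTCH1 and SMO. Each window ran from 250 bases before to 50 bases after the annotated start, and the 250 bases before the start are printed 5′ to 3′ on the strand of the gene, with each CpG in capitals. That of SMO lies at chr6:29735247-29735496 (plus strand) and that of GLI3 at chr13:15463473-15463722 (plus strand).
SMO: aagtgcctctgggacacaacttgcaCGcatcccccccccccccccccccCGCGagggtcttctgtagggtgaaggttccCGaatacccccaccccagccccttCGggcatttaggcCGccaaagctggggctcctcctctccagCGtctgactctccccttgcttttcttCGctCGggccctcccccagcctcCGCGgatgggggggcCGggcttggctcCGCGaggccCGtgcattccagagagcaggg
GLI3: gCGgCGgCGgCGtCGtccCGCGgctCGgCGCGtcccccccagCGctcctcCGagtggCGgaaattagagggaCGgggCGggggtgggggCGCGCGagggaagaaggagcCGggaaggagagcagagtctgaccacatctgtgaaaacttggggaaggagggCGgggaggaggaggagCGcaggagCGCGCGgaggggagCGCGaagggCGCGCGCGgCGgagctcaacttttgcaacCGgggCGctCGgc
The SMO stretch has 15 CpGs and 68.4% G and C, and the GLI3 stretch has 34 CpGs and 72.8% G and C. Over the whole windows of 300 bases, the 5 members had 17 to 47 CpGs and 67.3% to 76.3% G and C, against medians of 7 CpGs and 52.7% over 32851 mouse windows. The letters GACCACCCA, the core of the GLI binding motif, were searched on both strands and occurred in 83 of all windows (0.253%). They occurred in none of the 5 member windows, which says only that these letters are not there.

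SHH was detected on 7 of 7 co-culture arrays and on 0 of 9 PA6 arrays, and it passed the detection filter only through the co-cultures. Values below are log2 normalized intensities of the brightest probe of each gene. Without growth factors SHH read 9.98 and 9.92. With FGF2 the arrays gave 8.93, 9.77 and 9.22. With BMP4 they gave 9.21 and 6.98. All PA6 arrays lay between 5.44 and 5.80, so that every co-culture array was above every PA6 array, and the BMP4 array at 6.98 was the nearest to the stroma. The group means ran from -GFs (9.95 ± 0.04, SD, n = 2) over FGF2 (9.31 ± 0.43, SD, n = 3) to BMP4 (8.10 ± 1.58, SD, n = 2), and neither step between neighbours passed the test.

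**Figure D1:**
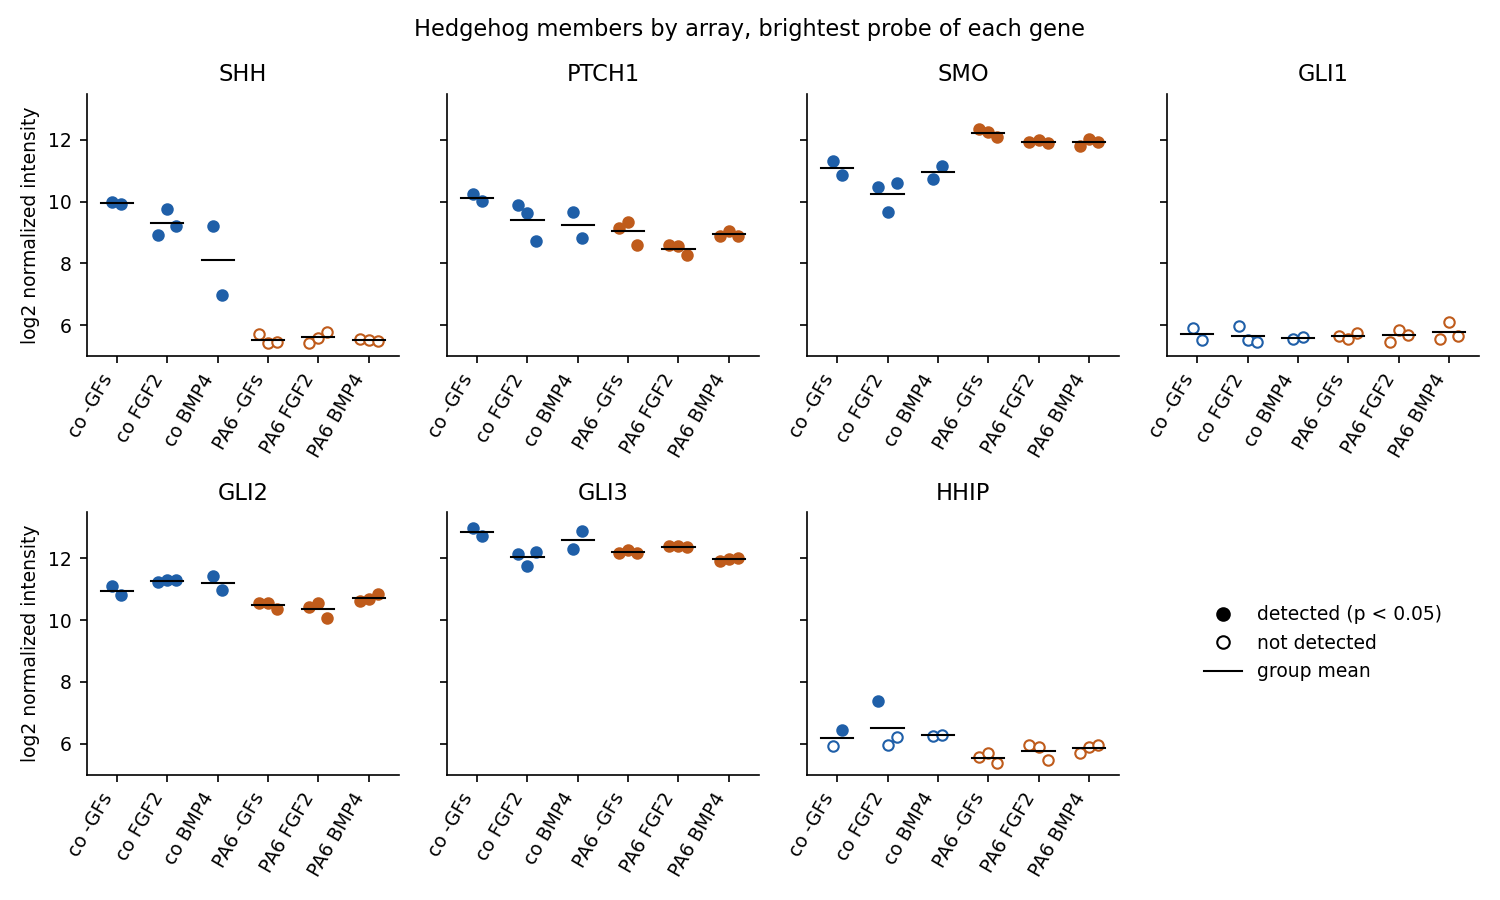
Log2 normalized intensity of each Hedgehog member (brightest probe) on each of the 16 arrays, by group on the x axis, with filled points for arrays on which the probe was detected, open points where it was not, and a bar at the group mean. SHH is detected in co-cultures alone (6.98 to 9.98), SMO is higher in PA6 (11.81 to 12.34) than in co-cultures (9.68 to 11.32), and GLI1 is detected on no array.

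PTCH1, the receptor and a target of the pathway, was detected on all 16 arrays. It read 10.23 and 10.01 in co-cultures without growth factors, 9.89, 9.63 and 8.74 with FGF2, and 9.66 and 8.82 with BMP4. In PA6 the values were 9.15, 9.34 and 8.61 without growth factors, 8.59, 8.57 and 8.28 with FGF2, and 8.90, 9.05 and 8.91 with BMP4. The untreated co-cultures were above every other array, whereas the treated co-cultures overlapped with PA6. The order of the means was co-cultures -GFs (10.12 ± 0.16, SD, n = 2), FGF2 (9.42 ± 0.60, SD, n = 3) and BMP4 (9.24 ± 0.59, SD, n = 2), then PA6 -GFs (9.04 ± 0.38, SD, n = 3), BMP4 (8.95 ± 0.08, SD, n = 3) and FGF2 (8.48 ± 0.17, SD, n = 3).

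SMO, the membrane protein that carries the signal into the cell, was higher in PA6 than in co-cultures. It read 11.32 and 10.85 in untreated co-cultures, 10.48, 9.68 and 10.59 with FGF2, and 10.74 and 11.16 with BMP4. The 9 PA6 arrays gave 11.81 to 12.34, above every co-culture array. Within co-cultures all 3 FGF2 arrays lay below the arrays of the other media.

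GLI2, the main activator, was detected on all arrays, at 11.10 and 10.80 in untreated co-cultures, 11.23, 11.29 and 11.29 with FGF2, and 11.44 and 10.97 with BMP4. In PA6 it ranged from 10.09 to 10.84, and only the highest PA6 array, with BMP4, was above the lowest co-culture array. GLI3, the main repressor, gave 12.97 and 12.73 in untreated co-cultures, 12.14, 11.74 and 12.21 with FGF2, and 12.30 and 12.89 with BMP4. Its FGF2 arrays were the lowest 3 of the 7 co-culture arrays. In PA6 the spread of GLI3 was small, with 12.17 to 12.26 without growth factors, 12.36 to 12.39 with FGF2 and 11.91 to 12.02 with BMP4, so that the 3 media did not overlap there.

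The other readouts of the pathway were at or near the limit of the array. GLI1, which is transcribed in response to the signal, was detected on 0 of 16 arrays, with raw intensities of 127.7 to 212.9. HHIP, which binds and withholds the ligand, was detected on 2 of 16 arrays, co-culture -GFs replicate 2 (raw intensity 228.3) and co-culture FGF2 replicate 1 (397.3). Neither gene passed the filter. In an alternative fit without the filter, no comparison called GLI1 or HHIP, and HHIP had its largest difference between co-cultures and PA6 with FGF2, 0.75 ± 0.30 (SE, adjusted p = 0.0706). A change of GLI1 below the limit of its probe was not detectable here.

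Whether FGF2 and BMP4 alter the pathway in differentiating ES cells was asked within the co-cultures. Calls required an adjusted p (limma, Benjamini-Hochberg over all genes tested) below 0.1 together with a log2 fold change beyond 1 in either direction. These thresholds follow the methods used for the series. With FGF2, 0 of 5 members were called, where 7.42% of all genes were. SMO and GLI3 had an unadjusted p under 0.05, as had 3373 of all 14829 genes tested. SMO differed by -0.83 ± 0.32 (SE, adjusted p = 0.183) and GLI3 by -0.82 ± 0.25 (SE, adjusted p = 0.105). Within runs of neighbouring columns of the deposited table that held both media, SMO differed by -0.83 and -0.26 and GLI3 by -0.84 and -0.52. PTCH1 differed by -0.71 ± 0.39, SHH by -0.64 ± 0.60 and GLI2 by 0.32 ± 0.20 (SE), with adjusted p-values of 0.339 to 0.584. The 95% interval of SHH ran from -2.05 to 0.76. Among the marker lists, the pluripotency sum rose from at most 47823 without growth factors to at least 122072 with FGF2 and the neural sum was lower (42256 to 46115 against 55283 to 81553). The sum of the 5 endothelium markers tested of 10 was 2121 to 3647 with FGF2 against 461 to 621, and 2 of the 5 were called higher. Their part in the values of the members was not tested.

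The probes of SMO did not give the same call. When each probe was tested as a feature of its own, which called 6.67% of 20880 probes for FGF2 in co-cultures, 2 of 3 SMO probes were called. Probe ILMN_2741614 gave 8.88 and 8.96 without growth factors and 8.21, 7.54 and 8.01 with FGF2, a difference of -1.002 ± 0.23 (SE, adjusted p = 0.0551). Probe ILMN_2741611 gave 8.62 and 8.97 without growth factors and 7.50, 7.30 and 7.73 with FGF2, a difference of -1.29 ± 0.31 (SE, adjusted p = 0.0614). The brightest probe, ILMN_2986978, had the adjusted p of 0.191 in that fit. All 3 SMO probes thus read lower on every FGF2 array than on either untreated array, and they differed in spread. GLI3 had a dimmer probe, ILMN_1215183, that was called as well (-1.02 ± 0.21, SE, adjusted p = 0.0429), although it was detected on only 3 of the 5 arrays compared. For GLI2 the dimmer probe moved the other way (-0.56 ± 0.45, SE, adjusted p = 0.533), and it was detected on 8 of 16 arrays. The dimmer probe of PTCH1 was detected on 1 of 16 arrays and was not tested.

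**Figure D2:**
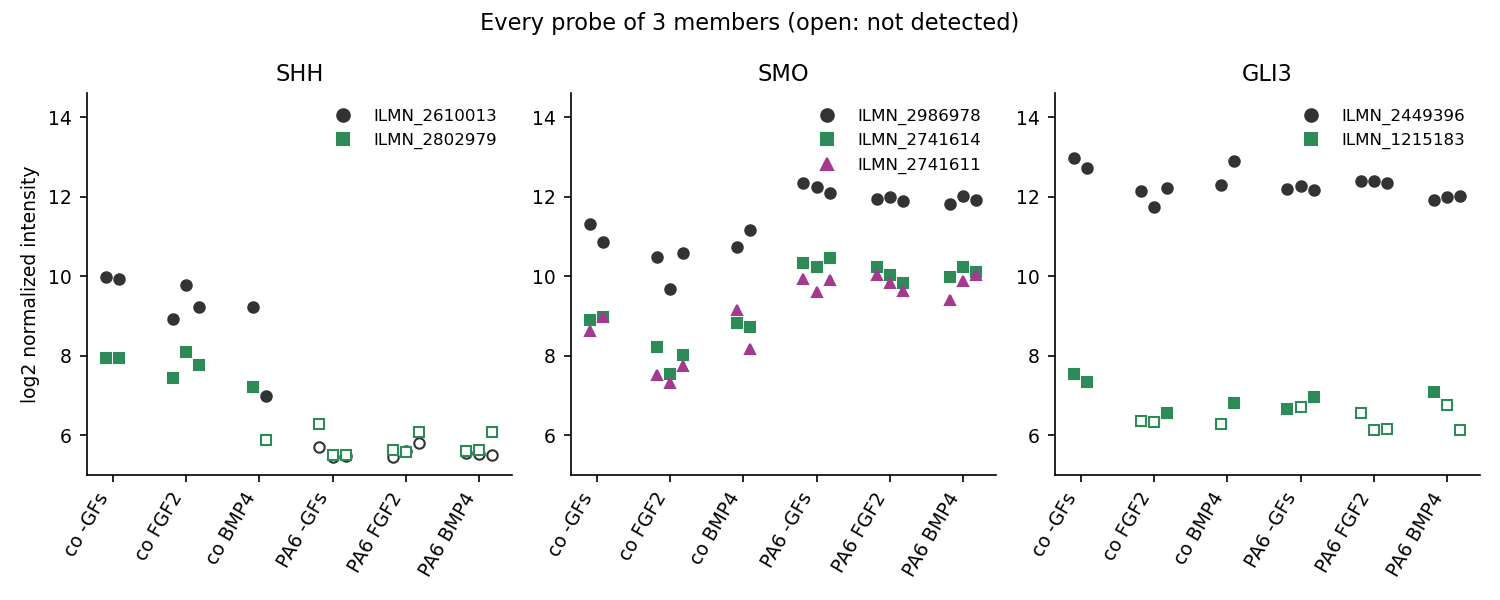
Log2 normalized intensity of every probe of SHH, SMO and GLI3 on each array, by group on the x axis, with 1 symbol and colour per probe and open symbols where the probe was not detected. All 3 SMO probes read lower in FGF2 co-cultures than in untreated ones and higher in PA6, and both SHH probes are undetected in PA6.

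With BMP4 in co-cultures, 0 of 5 members were called, where 3.75% of all genes were. SHH had the largest difference, -1.85 ± 0.65 (SE, adjusted p = 0.242), with both BMP4 arrays below both untreated arrays. The SD of the 2 BMP4 arrays was 1.58. SHH was called under other settings, with a difference of -1.69 after median scaling (adjusted p = 0.0159), of -1.85 when all 16 arrays shared 1 fit (adjusted p = 0.0393) and of -2.49 with the run of columns as a block (adjusted p = 0.0907). Omission of BMP4 replicate 1 gave -2.97 (adjusted p = 0.0593) and a call, and omission of BMP4 replicate 2 gave -0.74 (adjusted p = 0.481) and none. Over all alternatives the adjusted p ranged from 0.0159 to 0.518. The run of columns that held both media gave -2.93. The dimmer SHH probe, ILMN_2802979, gave 7.94 and 7.94 without growth factors and 7.22 and 5.87 with BMP4, so both probes were lowest on the same array. On that array, BMP4 replicate 2, the sum of the 4 adipocyte markers tested of 6 was 17475 against 2967 on replicate 1, and the stromal sum was 82736 against 64650. The sum of the 6 surface epithelium markers tested of 7 was 18380 against 32513, and the neural sum was 36451 against 32043. Against untreated co-cultures, the surface epithelium sum was higher on both BMP4 arrays (untreated 1984 to 2433), as were the endothelium sum (1806 to 2202 against 461 to 621) and the pluripotency sum (73064 to 94761 against 45065 to 47823), and the neural sum was lower. The part of these lists in the values of SHH and the other members was not tested.

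PTCH1 differed by -0.88 ± 0.43 (SE, adjusted p = 0.405) with BMP4. On their brightest probes SMO, GLI2 and GLI3 differed by -0.26 to 0.26, with adjusted p-values of 0.697 to 0.933, and their BMP4 and untreated arrays overlapped. The dimmer GLI3 probe gave -0.89 ± 0.24 (SE, adjusted p = 0.135), with its BMP4 arrays below its untreated arrays, and was detected on 1 BMP4 array. The SMO probe ILMN_2741614 gave -0.15 (adjusted p = 0.883), also without overlap. Between BMP4 and FGF2 in co-cultures, 0 of 5 members were called, where 1.44% of all genes were. SMO (0.69 ± 0.32, SE, adjusted p = 0.398) and GLI3 (0.56 ± 0.25, SE, adjusted p = 0.371) had their BMP4 arrays above their FGF2 arrays, and SHH differed by -1.21 ± 0.60 (SE, adjusted p = 0.427). The other SMO probes gave 0.85 and 1.14, also without overlap, but the dimmer GLI3 probe gave 0.13 and overlapped. When BMP4 replicate 1 was omitted, SHH differed by -2.32 and was called (adjusted p = 0.0785). PTCH1 and GLI2 lay within 0.18 of 0, and the sign of both turned with median scaling.

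In PA6 mono-cultures the question was whether the stroma itself responds, and 0 of 5 members were called for either factor. The share of all genes called was 0.0270% for FGF2, which is 4 genes, and 0% for BMP4, for which 1334 genes had an unadjusted p under 0.05 in limma. PTCH1 was lower on all 3 FGF2 arrays than on any untreated array (-0.56 ± 0.19, SE, adjusted p = 0.378). SMO read lower with FGF2 (-0.28 ± 0.12, SE, adjusted p = 0.471) and with BMP4 (-0.31 ± 0.12, SE, adjusted p = 0.533), again without overlap, but the dimmest of its 3 probes differed by 0.03 and -0.04. GLI3 differed by 0.17 ± 0.10 with FGF2 and by -0.24 ± 0.10 with BMP4 (SE), with adjusted p-values of 0.590 and 0.553. Its dimmer probe went the other way with FGF2 (-0.50 ± 0.24, SE, adjusted p = 0.518) and gave -0.11 with BMP4. That probe was detected on 2 untreated PA6 arrays and on 0 with FGF2. SHH was undetected in PA6, and no change in it could be read.

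The effects in both kinds of culture were then compared by an interaction term over all 16 arrays. For FGF2, 0 of 5 members were called against 7.90% of all genes. GLI3 came closest, with a difference between effects of -0.99 ± 0.25 (SE, adjusted p = 0.0299), just under the minimum fold, from -0.82 in co-cultures and 0.17 in PA6. It passed the minimum fold in 5 of 16 fits that omitted 1 array, and with the replicate block (-1.01, adjusted p = 0.0425). With no minimum fold change GLI3 was the 1 member called, where 11.0% of all genes were. Its dimmer probe gave -0.52 ± 0.34 (SE, adjusted p = 0.422). With every probe tested, 7.16% were called, and these included the SMO probe ILMN_2741611 (-1.31 ± 0.37, SE, adjusted p = 0.0550) but neither of the other SMO probes (-0.55 and -0.70). For BMP4, 0 of 5 members were called against 4.23% of all genes, with SHH at -1.83 ± 0.63 (SE, adjusted p = 0.165). SHH was at background in PA6, so this term is its co-culture difference set against background. It was called (-2.94) when co-culture BMP4 replicate 1 was omitted, which leaves 1 BMP4 array, and no difference of effects was read from it.

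**Figure D3:**
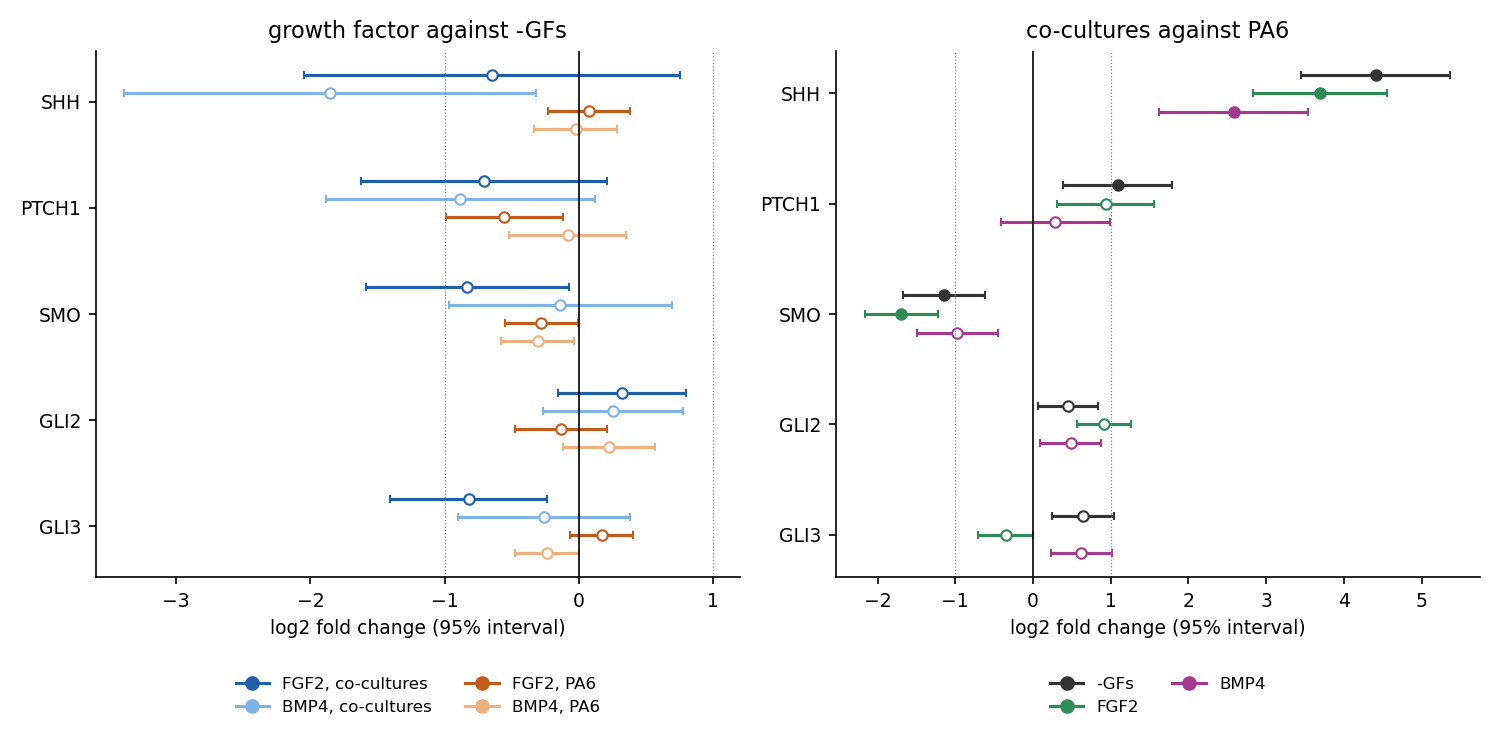
Log2 fold change of the 5 tested members with its 95% interval, for FGF2 and BMP4 against -GFs in co-cultures and in PA6 (left) and for co-cultures against PA6 in each medium (right), with filled points for called genes and dotted lines at the minimum fold. SHH was undetected in PA6, so its fitted values that involve PA6 are not exact. No growth factor effect is filled, and SHH in all 3 media, SMO without growth factors and with FGF2, and PTCH1 without growth factors are filled in the comparison of cultures.

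Co-cultures differed from the stroma far more than media did, which also held for the array as a whole. Without growth factors 3 of 5 members were called, where 44.1% of all genes were, so the share is not far from that of genes in general. SHH was among them, and it had passed the filter only through the co-cultures and therefore had to differ, and of the other 4 members 2 were called. SHH was undetected in PA6, and it was at least 9.58-fold higher in co-cultures, computed against the detection level of the PA6 arrays (means 9.95 and 5.54, adjusted p = 1.436e-06). PTCH1 was higher by 1.09 ± 0.32 (SE, adjusted p = 0.00947), and SMO was lower in co-cultures, by -1.14 ± 0.24 (SE, adjusted p = 0.00103). Within runs of columns the differences were 1.08 and 1.40 for PTCH1 and -1.02 and -1.24 for SMO. The PTCH1 call ended after median scaling (0.94), with the replicate block (0.92), without co-culture -GFs replicate 1 (0.98) and without PA6 -GFs replicate 3 (0.88). The SMO call ended without co-culture -GFs replicate 2 (-0.91).

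With FGF2, 2 of 5 members were called, where 46.4% of all genes were. These were SHH, with the same limit, and 1 of the other 4. SHH was at least 5.66-fold higher in co-cultures (means 9.31 and 5.61, adjusted p = 2.055e-06), and SMO was lower by -1.69 ± 0.22 (SE, adjusted p = 1.091e-05), with -1.46, -2.31 and -1.31 within runs. PTCH1 (0.94 ± 0.29, SE, adjusted p = 0.0106) and GLI2 (0.91 ± 0.16, SE, adjusted p = 0.000198) stayed under the minimum fold. PTCH1 was called without co-culture FGF2 replicate 3 (1.28), and GLI2 without PA6 FGF2 replicate 2 (1.01). With BMP4, 1 of 5 members was called, where 42.4% of all genes were, namely SHH, at least 2.38-fold higher (means 8.10 and 5.51, adjusted p = 0.000202), and 0 of the other 4. The bound for SHH was at least 1.10-fold without BMP4 replicate 1 and at least 5.14-fold without BMP4 replicate 2. SMO differed by -0.97 ± 0.24 (SE, adjusted p = 0.00342) and was called without co-culture BMP4 replicate 2 (-1.18) or PA6 BMP4 replicate 1 (-1.03), and PTCH1 did not separate the cultures (0.29 ± 0.32, SE, adjusted p = 0.456). The stromal sum was lower and the neural sum higher in co-cultures of all media, as given above, and the part of the mixture of cells in these differences was not tested.

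Without a minimum fold, 5, 5 and 4 members were called in the 3 media, where 68.3%, 73.2% and 67.3% of all genes were. GLI2 was on the side of the co-cultures in all 3 (0.45 to 0.91). GLI3 was 0.64 ± 0.18 higher in untreated co-cultures and 0.62 ± 0.18 higher with BMP4, but -0.35 ± 0.16 lower with FGF2 (SE, adjusted p = 0.00753, 0.00950 and 0.0746). The dimmer GLI3 probe differed by 0.66 in untreated medium, by 0.14 with FGF2 and by -0.12 with BMP4, so that its sign was opposite in both treated media. With every probe tested, 44.4%, 46.3% and 42.2% of probes were called, and all 3 SMO probes were called without growth factors (-1.01 to -1.41) and with FGF2 (-1.69 to -2.32). With BMP4, 2 of the 3 were called (-1.11 and -1.33). The dimmer SHH probe, also undetected in PA6, was at least 2.38-fold higher without growth factors and at least 1.95-fold higher with FGF2. With BMP4 it was not called (adjusted p = 0.0741).

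A list of 48 other genes of the pathway was followed beside the members, by role. All were on the array, and 31 were tested. With FGF2 in co-cultures 2 of 31 were called, both lower, which is 6.45% against 7.42% of all genes. SUFU, which holds GLI proteins in the cytoplasm, read 8.77 and 8.78 without growth factors and 6.83 to 7.65 with FGF2, and it fell by 1.41 on the log2 scale (SE 0.27, adjusted p = 0.0295). BCL2, a survival gene, fell by 1.41 (SE 0.33, adjusted p = 0.0528). The call of SUFU ended without either of the untreated arrays (adjusted p = 0.144 and 0.126), and that of BCL2 with the replicate block and without co-culture -GFs replicate 1, FGF2 replicate 1 or FGF2 replicate 3. Of the 31 genes 7 read higher with FGF2, and the list had a median difference of -0.41 against -0.06 over all genes tested. With BMP4 1 of 31 was called (3.23%, against 3.75% of all genes), FOXC2, a forkhead gene of mesoderm, which was undetected in untreated co-cultures and at least 1.82-fold higher with BMP4 (adjusted p = 0.0830), a call that ended without any 1 of 5 of the 7 arrays. The call also ended with the run of columns as a block (adjusted p = 0.114) and without the detection filter (adjusted p = 0.154). The median difference of the list was -0.18 with BMP4, against -0.0015 over all genes. Between BMP4 and FGF2, and for each factor in PA6, 0 of 31 were called, and 8, 4 (FGF2) and 6 (BMP4) had an unadjusted p under 0.05. Of all 14829 genes tested, 214, 4 and 0 were called, and 2104, 1536 and 1334 had such a p in limma.

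Between co-cultures and PA6 the list held 58.1%, 48.4% and 51.6% of called genes without growth factors, with FGF2 and for BMP4, where 44.1%, 46.4% and 42.4% of all genes were called. All genes were also divided about evenly in direction, with 3312 higher and 3228 lower without growth factors. Of the 31 genes, 9 were higher in untreated co-cultures and 9 lower, with FGF2 5 were higher and 10 lower, and with BMP4 6 were higher and 10 lower. SCUBE3, LRP2, NKX2-9, NKX6-1 and JAG2 were undetected in PA6 in all 3 media. They passed the filter only through the co-cultures, so that their differences were largely set in advance. NKX6-2 was undetected in untreated PA6 and FOXC2 in untreated co-cultures. The shares and directions of the list are therefore no result about the pathway. Among genes for making and releasing the ligand, SCUBE3 was higher in co-cultures and HHAT and DISP1 were lower in all 3 media. HHAT attaches the fatty acid that SHH needs for its activity, and with FGF2 it was lower by -2.99 ± 0.24 (SE, adjusted p = 1.037e-07). Of the co-receptors, LRP2 and CDON went in opposite directions. LRP2, a large endocytic receptor that binds SHH in the forebrain, was undetected in PA6 and at least 15.2-fold higher in co-cultures without growth factors, at least 7.42-fold with FGF2 and at least 6.40-fold with BMP4. CDON, which presents SHH to PTCH1, was lower by -3.65 ± 0.20 with FGF2 and by -2.87 ± 0.22 with BMP4 (SE, adjusted p = 2.984e-09 and 1.565e-07).

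Among targets, NKX6-1, a ventral neural tube gene, was undetected in PA6 and at least 11.04-fold higher in co-cultures without growth factors and at least 2.61-fold higher with BMP4. FOXF1A, a target in mesoderm, was lower in co-cultures, by -3.96 ± 0.22, -3.42 ± 0.20 and -3.53 ± 0.22 (SE) in the 3 media, and FOXC2 was at least 8.68-fold lower without growth factors. Other targets called in at least 1 medium were NKX6-2, NKX2-9, CCND1 and JAG2 (higher in co-cultures) and SFRP1 and BCL2 (lower). Of the 16 transduction genes tested, EVC and EVC2, which act with SMO at the cilium, were lower and ARRB2 was higher in co-cultures in all 3 media. STK36 was higher without growth factors, TULP3 was lower without growth factors and with BMP4, RAB23 was lower with BMP4 and SUFU was lower with FGF2. The 17 genes not tested included the ligands IHH and DHH, the co-receptors BOC and GAS1, and the floor plate and ventral genes FOXA2, NKX2-2 and OLIG2. Of 5 floor plate markers SHH alone was tested.

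**Figure D4:**
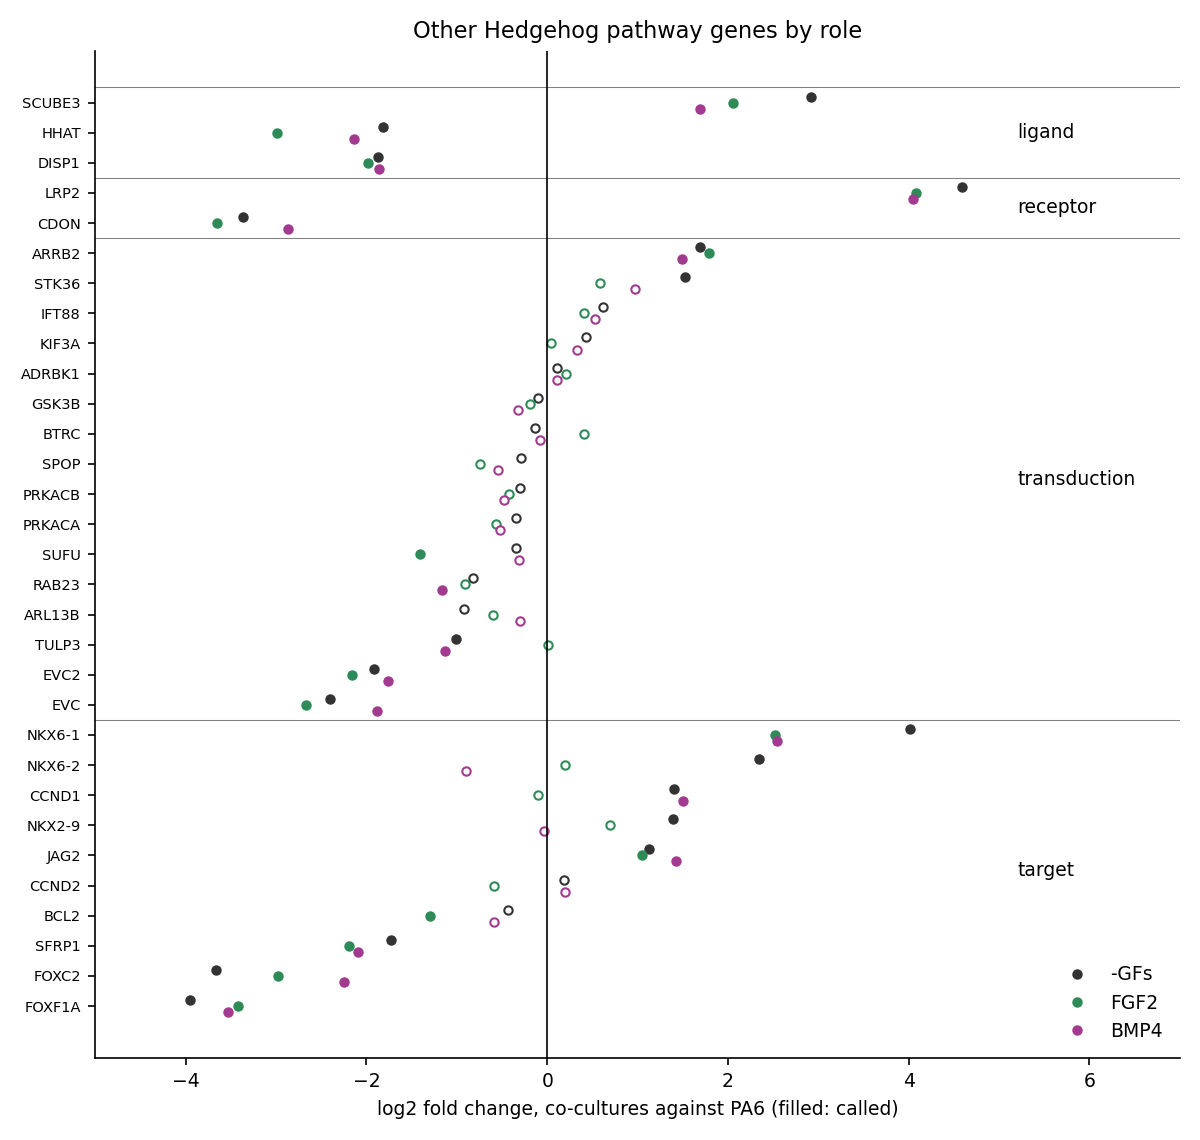
Log2 fold change of the 31 tested pathway genes between co-cultures and PA6, by role, with 1 colour per medium and filled points for called genes. LRP2 and NKX6-1 lie farthest toward the co-cultures and FOXF1A, FOXC2 and CDON farthest toward PA6, while most transduction genes lie near 0.

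The genes whose profile was most like that of each member were named by Pearson's r over 14828 other genes, as a description. Over all 16 arrays SHH was most like C130021I20 (0.978), PDZRN4 (0.977) and TTYH1 (0.976), and SMO was most like 9930012K11RIK (0.975), SLC25A24 (0.974) and ZFH4 (0.973). For GLI2 these were RAVER1 (0.962), LOC212815 (0.941) and LLGL2 (0.932), for GLI3 they were GM784 (0.903), YPEL1 (0.894) and DTX4 (0.883), and for PTCH1 they were EIF4ENIF1 (0.858), ADAL (0.857) and MED24 (0.853). These points share the split into co-cultures and PA6. Over the 7 co-culture arrays the nearest genes were others, with GTPBP2 (0.990), CSNK1E (0.958) and MXRA7 (0.946) for SHH. They were LOC238836 (0.985), COPA (0.981) and MSTO1 (0.961) for PTCH1 and 2810417H13RIK (0.991) and 6330548G22RIK (0.986) for SMO. For GLI2 they were RPL13A (0.983), CIDEA (0.973) and RAB40C (0.972), and for GLI3 they were LOC385392 (0.996), MAP3K11 (0.992) and EEA1 (0.990).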

How the data were processed

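Gene expression of 16 cultures was measured on 1 Illumina array each. The authors scanned and processed the arrays with GenomeStudio (2011.01, per the submitters' processing notes) and deposited an average bead intensity per probe and array, not normalized between arrays, with a detection p-value in the deposited table. The table names no genome build. Intensities were corrected for background (normexp, from the detection p-values) and quantile normalized in limma 3.58.1 (R 4.3.3), and 16 was added before log2. A probe was kept if detected (p-value below 0.05) throughout at least 1 of the 6 groups, which held for 20880 of 45281, and the probe of highest mean stood for its gene (14829 genes). Models in limma used the 7 co-culture arrays, the 9 PA6 arrays, or all 16 arrays for comparisons across cultures and for interactions, giving 10 comparisons. P-values were adjusted by Benjamini-Hochberg over all genes, and a gene was called at an adjusted p under 0.1 and a log2 fold change over 1 in size. Where no array of a group detected a gene, the fold is a bound against the detection level there. Errors are standard deviations (SD) between arrays or standard errors (SE) of fitted differences, and few arrays per group limit the precision. Each fit was tested on simulated data. The members and lists were chosen with earlier results of these data known. Of the pathway list, genes called in any comparison were named, with values for at most 4 per comparison with the largest change, and for each tested member the 3 most similar genes, of which some are not reported here. The SMO, GLI3, GLI2 and SHH probes are given as part of the members. Alternatives covered scaling, offset, filter, threshold, probes, fit, blocks and omission of each array. In PA6 the runs of columns are the replicate numbers, in co-cultures they are not.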

Additional observations from a re-analysis of the deposited data

Results flagged for a closer look

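The interaction term in limma compared the FGF2 effects in co-cultures and PA6. It had an adjusted p under 0.1 for the member GLI3, which stayed below the minimum fold and was not called. It called 3 of the 31 tested genes of the pathway list (9.68%, against 7.90% of all genes). GLI3 had a difference of -0.99 ± 0.25 (SE, adjusted p = 0.0299), with -0.82 in co-cultures and 0.17 in PA6. CCND1, a cyclin of the cell cycle, had a difference of -1.51 ± 0.32 (SE, adjusted p = 0.0139), with -0.53 in co-cultures and 0.98 in PA6. HHAT had a difference of -1.17 ± 0.35 (SE, adjusted p = 0.0668), with -0.74 in co-cultures and 0.43 in PA6. Its call ended in 7 of 16 fits that omitted 1 array, with median scaling (-1.05) and without the detection filter (adjusted p = 0.125). SUFU had a difference of -1.07 ± 0.29 (SE, adjusted p = 0.0466), with -1.41 in co-cultures and -0.34 in PA6, and lost its call in 4 of 16 fits that omitted 1 array. CCND1 lost it in 0 of 16. SUFU also lost its call with median scaling (-0.83), with an offset of 50 (-0.92) and with the column run as a block (-0.96).

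For BMP4 the term called 2 of the 31 tested genes of the pathway list (6.45%, against 4.23% of all genes). Both were ventral neural genes with groups at background. NKX6-2 had a difference of -3.23 ± 0.94 (SE, adjusted p = 0.0962), with -1.67 in co-cultures and 1.56 in PA6. It was undetected on all untreated PA6 arrays, so the second value is not exact (at least 2.51-fold higher with BMP4), and 1 of the 3 BMP4 arrays read 9.67 and the lowest 6.65. Its call ended in 12 of 16 fits that omitted 1 array, without the detection filter (adjusted p = 0.195) and with every probe tested (adjusted p = 0.1045). NKX2-9 had a difference of -1.43 ± 0.31 (SE, adjusted p = 0.0259), with -0.89 in co-cultures and 0.53 in PA6. It was undetected on all PA6 arrays and on both co-culture BMP4 arrays, so no effect can be read in PA6, and in co-cultures it was at least 1.54-fold lower with BMP4 (not called there). Its call ended without co-culture -GFs replicate 1 (-1.28) and with an offset of 50 (-0.9951).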

How the results depend on the processing

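Of 1594 single gene values under alternatives, 1485 kept direction and side of the threshold, 54 lost and 25 gained a call, and 30 changed sign, all of them members that were not called. SHH between co-cultures and PA6 kept its call in all alternatives that tested it. It was undetected in PA6 and had to differ, so the kept call is no test of robustness. The count of members for BMP4 in co-cultures was 1 with median scaling, with 1 fit and with the column run as a block, where 5.77%, 5.87% and 4.02% of all genes were called. Median scaling moved the median of all genes from 0.04 to 0.29 for BMP4 against FGF2, where PTCH1 became 0.0812 and GLI2 0.22, and from 0.0042 to 0.24 for the BMP4 interaction, where GLI3 became 0.21. Detection on all 16 arrays removed SHH and left 1 member called with FGF2 and 0 with BMP4 between cultures (38.2% and 34.6% of all genes). With no minimum fold the counts between cultures were 5, 5 and 4, and 1 for the FGF2 interaction.

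The labels describe 1 well of each condition per biological replicate, but the deviations of same-numbered samples did not meet the rule for pairing. They correlated at -0.199 to 0.283 in co-cultures (other pairs -0.283 to 0.249). By run of columns, co-culture arrays of the same run correlated at 0.0976 to 0.283 and those of different runs at -0.283 to 0.0976. This is a hint of pairing by run. In PA6 same-numbered samples correlated at 0.0697 to 0.199, above every pair of different numbers (-0.136 to -0.0122), a hint of pairing there too. With the replicate block, the FGF2 interaction called 1 member (GLI3, -1.01) and PTCH1 became 0.0190 there, and calls over all genes went from 1100 to 988 for FGF2, from 556 to 258 for BMP4 and from 214 to 11 for BMP4 against FGF2 in co-cultures, and from 4 to 23 for FGF2 in PA6. Beside PTCH1 between untreated cultures (0.92), the block changed no other call of a member. With the column run as a block, BMP4 in co-cultures gave 0.28 for SMO and 0.0140 for GLI3, and the BMP4 interaction gave -0.0062 for GLI2 and 0.0512 for GLI3.

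Leaving out 1 array at a time, members called ranged from 0 to 1 for BMP4 against -GFs, for BMP4 against FGF2 and for both interactions, and from 1 to 2 for co-cultures against PA6 with BMP4, and from 2 to 3 without growth factors or with FGF2. The shares of all genes called then were 0.688% to 3.69% and 0.263% to 1.26% for the first pair, 6.33% to 8.88% and 2.68% to 4.65% for the FGF2 and BMP4 interactions, and 40.1% to 47.1% between cultures. Signs changed within these ranges, in co-cultures -0.37 to 0.10 (SMO) and -0.56 to 0.0399 (GLI3) for BMP4, and -0.60 to 0.24 (PTCH1) and -0.30 to 0.16 (GLI2) for BMP4 against FGF2. In PA6 they were -0.24 to 0.0052 (GLI2) for FGF2 and -0.29 to 0.0694 (PTCH1) for BMP4. Fitted values of SHH in PA6 ran from -0.0201 to 0.16 for FGF2 and from -0.0734 to 0.0614 for BMP4. SHH was undetected in PA6, so no change is read from these values. Between cultures PTCH1 with BMP4 ranged from -0.13 to 0.71, and interactions ranged from -0.38 to 0.19 (PTCH1, FGF2), -0.0626 to 0.40 (SMO, BMP4), -0.20 to 0.26 (GLI2, BMP4) and -0.32 to 0.28 (GLI3, BMP4). The causes were not tested. GLI1 was detected on 0 of 16 arrays and HHIP on 2, which limits what can be said of them.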
